A study of Rattus norvegicus with 8 samples.

Results

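Expression of 8 myelin and oligodendrocyte genes (Mbp, Mag, Mog, Mobp, Cnp, Pmp22, Ugt8 and Myrf) was followed in the neurohypophysis, or neural lobe, of male Sprague Dawley rats aged 35 days (4 libraries, the submitters' control) and 125 days (4 libraries). The genes were chosen by symbol, and all 8 were found among the 33294 genes listed. Animals of both ages were perfused with saline under isoflurane, and poly(A) RNA of the frozen lobe was sequenced. No treatment or genotype other than age separated the groups. Whether the 4 numbered samples of an age were different animals is not stated. The tests therefore use the variation among samples, some of which could be technical.

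Myelin is the multilayered membrane that oligodendrocytes wrap around axons in the central nervous system and Schwann cells wrap around axons in peripheral nerve. Its compact layers are held together by proteins such as myelin basic protein (Mbp), and its lipid is rich in galactosylceramide, which the enzyme encoded by Ugt8 makes. Oligodendrocytes arise from Pdgfra-expressing progenitors through a committed stage that expresses Gpr17, Bcas1 and Enpp6, and the transcription factor Myrf switches on their myelin genes. The neurosecretory axons that fill the neural lobe are for the most part unmyelinated, and the lobe's main glia are pituicytes. No marker of the pituicyte list was at 0 in all libraries.

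Values below are depth-normalized counts, that is, gene read counts divided by 1 size factor per library. They depend on transcript length as well as on abundance, so levels are compared between libraries and not between genes. Recovered depth ran from 28429133 to 58696254 reads per library. Library 3 of 35 days stood apart: its summed level of 11 anterior pituitary genes was 1394298, against 24290.5 to 228186 in the other 35-day libraries and 6528 to 50197 at 125 days. Changes are log2 values, 125 minus 35 days, from limma on log2(value + 1), with their standard error (SE, n = 4 libraries per age) and a Benjamini-Hochberg p adjusted over all 17919 genes tested. This scale understates changes of weakly expressed genes. In bulk tissue, fewer cells of a type and less RNA per cell cannot be told apart.

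To show the sequence in front of the genes that were lower at 125 days (Mag, Ugt8 and Pmp22), of 1 that did not pass the test (Cnp) and of the gene most raised in a single library (Mobp), the 250 bases before the RefSeq start site are printed 5′ to 3′ on the strand of the gene (RefSeq, build GRCr8, which is not the build of the counts). Capitals mark matches, on either strand, to the E-box CANNTG (bound by Olig and other bHLH factors), the Myrf-type sequences CTGGCAC and CTGGTAC, and the Sox-type sequences ACAAAG and ACAATG.
Mag (chr1:95291045-95291294, minus strand): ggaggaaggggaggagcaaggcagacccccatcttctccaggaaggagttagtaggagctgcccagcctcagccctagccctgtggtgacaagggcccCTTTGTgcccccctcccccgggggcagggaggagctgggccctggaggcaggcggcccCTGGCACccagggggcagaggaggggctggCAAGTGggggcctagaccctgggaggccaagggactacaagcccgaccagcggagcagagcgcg
Ugt8 (chr2:217007168-217007417, minus strand): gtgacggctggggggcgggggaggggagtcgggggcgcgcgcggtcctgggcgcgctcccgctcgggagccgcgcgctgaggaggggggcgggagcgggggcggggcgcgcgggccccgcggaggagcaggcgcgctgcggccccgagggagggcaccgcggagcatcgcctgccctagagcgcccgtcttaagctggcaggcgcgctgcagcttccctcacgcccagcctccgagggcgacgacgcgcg
Pmp22 (chr10:48294682-48294931, plus strand): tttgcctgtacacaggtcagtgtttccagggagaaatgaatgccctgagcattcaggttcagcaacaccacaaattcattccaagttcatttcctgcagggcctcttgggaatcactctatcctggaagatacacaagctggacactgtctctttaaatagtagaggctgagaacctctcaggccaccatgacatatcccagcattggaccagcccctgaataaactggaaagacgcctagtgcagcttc
Cnp (chr10:86011254-86011503, plus strand): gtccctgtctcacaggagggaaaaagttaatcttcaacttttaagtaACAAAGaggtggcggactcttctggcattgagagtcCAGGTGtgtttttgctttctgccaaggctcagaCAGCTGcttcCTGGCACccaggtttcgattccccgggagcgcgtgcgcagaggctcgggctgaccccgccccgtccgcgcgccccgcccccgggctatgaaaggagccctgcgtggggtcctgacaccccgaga
Mobp (chr8:128746982-128747231, plus strand): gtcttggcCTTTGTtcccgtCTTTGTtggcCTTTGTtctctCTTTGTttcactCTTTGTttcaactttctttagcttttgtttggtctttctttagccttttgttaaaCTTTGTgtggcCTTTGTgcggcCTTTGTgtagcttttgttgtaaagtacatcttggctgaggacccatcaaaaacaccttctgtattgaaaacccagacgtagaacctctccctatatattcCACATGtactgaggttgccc
The windows of Mag and Cnp each held CTGGCAC, from 94 to 88 bases before the start in Mag and from 124 to 118 in Cnp, and this sequence occurred in 3.78% of 33469 promoter windows of the same length. Mobp held 8 matches to ACAAAG, between 242 and 115 bases before the start, and at least 1 match was present in 16.3% of all windows. No letters of any of the 5 sequences were found in the windows of Ugt8 and Pmp22. The E-box was present in 65.5% of all windows, CTGGTAC in 1.78% and ACAATG in 11.1%, and no match overlapped one to another sequence in these windows. Mbp had windows at 2 start sites in the table. Mog and Myrf are named only. A match describes letters and not a bound site.

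Of the 8 genes, 3 (Mag, Ugt8 and Pmp22) fell with age and 1 (Myrf) rose, and Mbp, Mobp, Mog and Cnp did not pass the test. Over all genes tested 17.7% passed, 8.87% lower and 8.85% higher at 125 days. The ages did not overlap in 5 of the 8: Mag, Ugt8, Pmp22 and Mobp were lower in every 125-day library and Myrf was higher in every one. Over all genes tested 24.9% did not overlap, 11.5% lower and 13.4% higher. The median log2 change of the 8 genes was -0.77, and -0.48 without 35-day replicate 2, beside 0.01 for all genes tested in either fit.

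**Figure D1:**
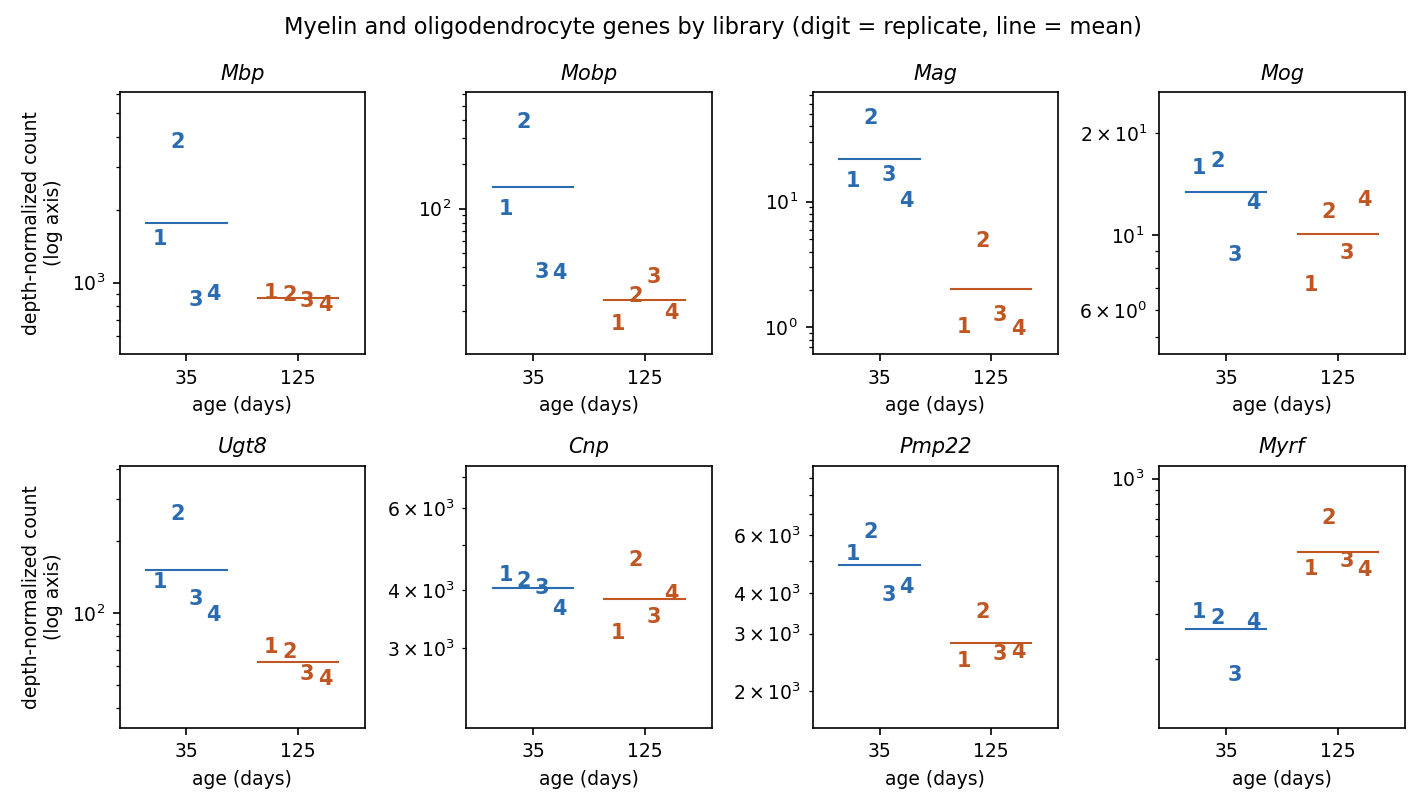
Depth-normalized counts (log axis, scaled for each gene) of the 8 genes in each library against age in days; digits are replicate numbers and lines are means of 4 libraries. Replicate 2 of 35 days is the highest library for Mbp (3814), Mobp (389) and Mag (46.5), and all Myrf values at 125 days (441 to 703) lie above those at 35 days (173 to 306).

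Mbp encodes the cytoplasmic protein that presses the layers of compact myelin together. In replicates 1 to 4 of 35 days it was at 1517, 3814, 847 and 899, and at 125 days at 904, 887, 842 and 810.4. The ages overlapped: 35-day replicates 3 and 4 lay within or near the range of the 125-day libraries, and replicates 1 and 2 lay above it. The log2 change was -0.75 (SE 0.40, adjusted p = 0.230), and it was -0.29 (SE 0.19, adjusted p = 0.373) without 35-day replicate 2. With library weights, a fit in which 44% of all genes passed, Mbp passed as well (log2 change -1.60, adjusted p = 0.00327). That fit gave its highest weight (3.76) to 35-day replicate 2, the library with the highest Mbp value.

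Mobp encodes a small basic protein of compact myelin in the central nervous system. It was at 98.6, 389, 37.0 and 36.1 at 35 days and at 16.3, 25.4, 34.0 and 19.6 at 125 days. Every 35-day library was above every 125-day library, but replicates 3 and 4 of 35 days were only just above replicate 3 of 125 days. Its log2 change of -1.85 (SE 0.66, adjusted p = 0.0844) did not pass. It passed by edgeR (adjusted p = 0.0442) and DESeq2 (0.0126) on the recovered reads, with library weights (0.00136) and without 35-day replicate 3 (0.0259). In the first, second and last of these fits 9.22%, 12.2% and 14.8% of all genes tested were lower at 125 days. The weighted fit gave its highest weight (3.76) to 35-day replicate 2, which held the highest Mobp value. Without 35-day replicate 2, Mobp changed by -1.12 (adjusted p = 0.111).

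Mag encodes the adhesion receptor that glia hold against the axon at the innermost myelin layer. It was at 14.6, 46.5, 16.3 and 10.2 at 35 days and at 1.02, 4.89, 1.26 and 0.978 at 125 days. These are 90 reads over the 35-day libraries and 8 over the 125-day libraries, 3 of which held 1 read each. The log2 change was -2.85 (SE 0.54, adjusted p = 0.00582), and -2.42 (adjusted p = 0.0160) without 35-day replicate 2. Mag entered the test only through its 35-day values, and in the fit without a filter on low values its adjusted p was 0.00601. Mog, a glycoprotein on the outer face of central myelin, was also near the lower limit of measurement, at 15.8, 16.5, 8.72 and 12.4 and then 7.11, 11.7, 8.83 and 12.7. Its ages overlapped (log2 change -0.37, SE 0.32, adjusted p = 0.467), with 59 and 39 reads in all.

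Ugt8 was at 135, 259, 114 and 97.6 at 35 days and at 72.1, 68.4, 55.5 and 52.8 at 125 days. The ages did not overlap, and replicate 2 of 35 days was again the highest. It fell by 1.18 on the log2 scale (SE 0.28, adjusted p = 0.0186). The call was lost without 125-day replicate 3 (adjusted p = 0.0564) or 4 (0.0599) and in the fit with anterior lobe content as a covariate (-1.22 on the log2 scale, adjusted p = 0.0653). Without 35-day replicate 2, a fit in which 5.95% of all genes tested were lower, it was kept (-0.88 on the log2 scale, adjusted p = 0.0239).

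Cnp encodes the cyclic nucleotide phosphodiesterase of the non-compact, cytoplasm-filled myelin channels, and is also made by other cells. It was at 4298, 4176, 4046 and 3645 at 35 days and at 3232, 4634, 3495 and 3929.8 at 125 days. The ages overlapped throughout (log2 change -0.09, SE 0.12, adjusted p = 0.649). Replicate 2 of 125 days was the highest of the 8 libraries, and 35-day replicate 2 did not stand out.

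Pmp22 encodes a tetraspan membrane protein of compact peripheral myelin that fibroblasts, endothelium and other cells also express. It was at 5248, 6139, 3925 and 4155 at 35 days and at 2467, 3494, 2599.8 and 2634 at 125 days, with no overlap. It fell by 0.79 on the log2 scale (SE 0.16, adjusted p = 0.00878), and the call was kept without any 1 library (adjusted p from 0.00203 to 0.0334) and with the anterior lobe covariate (0.00766). Markers of other Pmp22-expressing cells moved the same way. Of 12 fibroblast markers 9 were lower and none higher, and their levels summed to 95159 to 121915 in the 35-day libraries and 39454 to 56892 in the older ones. Of 12 endothelial markers 8 were lower and none higher, with sums of 26062 to 35708 and 16036.5 to 31336, and the count lower was 4 without 35-day replicate 2 and 5 when the anterior lobe covariate was included. Within 125 days the highest Pmp22 value and the highest sums of the fibroblast and endothelial lists were in replicate 2. This was not particular to the fibroblast and endothelial lists. The same library had the highest 125-day sum of the 5 pathway lists and of the Schwann cell, pituicyte, pericyte and microglia lists. It did not for the anterior lobe, intermediate lobe and proliferation lists. No fibroblast or endothelial marker was at 0 in all libraries, and their part in the Pmp22 result was not tested.

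Myrf, the membrane-tethered transcription factor that activates myelin genes, went the other way. It was at 306, 288, 173 and 278 at 35 days and at 448, 703, 480.4 and 441 at 125 days. It rose 0.99 on the log2 scale (SE 0.21, adjusted p = 0.0104), a fitted fold of 1.99, and the call was kept without any 1 library (adjusted p from 0.0046 to 0.0292). In the fit with anterior lobe content as a covariate, where 14.7% of all genes passed, Myrf changed by 0.51 (SE 0.19) and the call was lost (adjusted p = 0.0955). Pomc, a hormone precursor on the intermediate lobe list, took 5.65 to 10.2% of the summed values of a 35-day library. It took 10.1 to 14.3% of a 125-day one, overlapping in 1 library of each age. Of the 6 tested genes of the intermediate lobe list 2 were higher and none was lower, beside 8.85% and 8.87% of all genes tested. The summed level was 2028749 to 3773795 and then 3635231 to 5362768. Within 35 days, replicate 3 had the lowest Myrf value, the highest Pomc share and the highest sum of this list. It is also the library with the high anterior lobe level. Within 125 days, replicate 2 had the highest Myrf value, the lowest Pomc share and the lowest sum. These are single libraries. No gene of the list was at 0 in all libraries, and the part of these genes in the Myrf result was not tested.

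**Figure D2:**
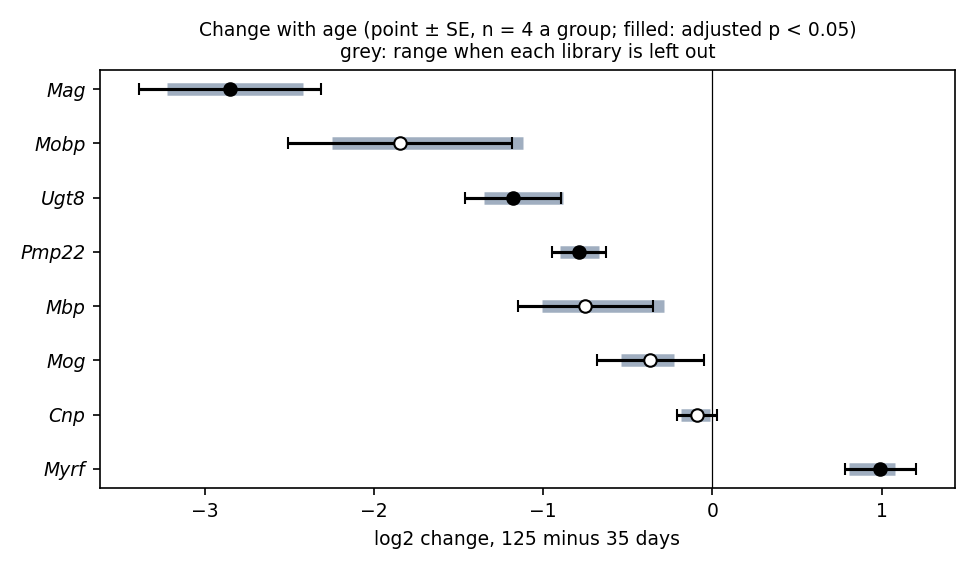
Log2 change with age (125 minus 35 days) of each of the 8 genes; points are limma estimates with their SE (n = 4 libraries per age), filled where the adjusted p was below 0.05, and grey bars span the estimates when each library is left out in turn. Mag (-2.85) and Myrf (0.99) lie at the ends, and no bar crosses 0.

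Replicate 2 of 35 days held the highest value of all 8 libraries for 6 of the 8 genes (Mbp, Mag, Mog, Mobp, Pmp22 and Ugt8), as it did for 11.1% of all genes tested. This library was singled out after its values were seen. It was at least 2 times the median of the other 35-day libraries for 4 of the 8, at 10.5 times for Mobp, 4.24 for Mbp, 3.18 for Mag and 2.27 for Ugt8, and this held for 0.832% of all genes tested (149 genes). Cnp (1.03 times) and Myrf (1.04 times) were not raised in it.

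Of the 107 tested genes of the 5 pathway lists, 3 were at least 2 times the median of the other 35-day libraries in this library. The median ratio of these genes was 1.05, and it was 1.25 for the Schwann cell list and 1.19 for the pituicyte list. The 19 tested genes of the mature oligodendrocyte list had a median ratio of 1.04 there, beside 1.01 for all genes tested, and 4 of the 19 had their highest value in it. Of 17 Schwann cell markers tested 2, among them Ncmap (2.19 times), were at least 2 times the median of the other 35-day libraries there, and so was Ermn (2.75 times), a cytoskeletal protein of mature oligodendrocytes, alone of the 19 genes of the mature list. In the progenitor and committed list none of 13 reached 2 times, nor did any of the 17 transcription factors tested. In the lipid list 1 of 32 did (Fa2h), and in the axon-glia contact and node list 1 of 26. Of 11 anterior lobe genes Ghrhr and Trhr did. The part of myelinated nerve or of anterior lobe tissue in this library's values was not tested.

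**Figure D3:**
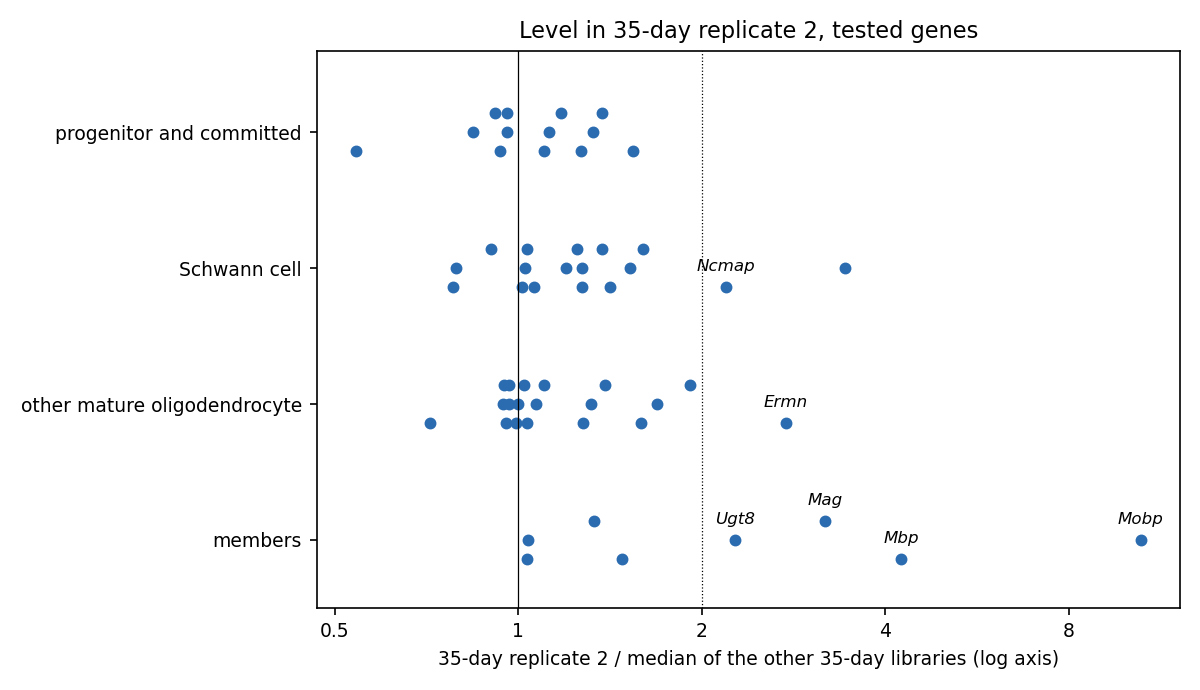
Ratio of the depth-normalized count in 35-day replicate 2 to the median of the other 35-day libraries (log axis) for the tested genes of 4 lists; each point is a gene, the solid line is a ratio of 1 and the dotted line of 2. Mobp (10.5) and Mbp (4.24) lie farthest to the right, and no progenitor gene passes the dotted line.

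Among the other genes of mature oligodendrocytes and compact myelin, 4 of 19 tested were lower at 125 days and none was higher. The shares over all genes tested were 8.87% and 8.85%. The median log2 change of this list was -0.26. Gpr37, a receptor of differentiating oligodendrocytes, was at 715, 721, 477 and 674 at 35 days and at 235, 329, 235 and 261 at 125 days. It fell by 1.28 on the log2 scale (SE 0.17, adjusted p = 7.47e-04), with no overlap between ages, and kept its call without any 1 library. The carbonic anhydrase gene Car2 (log2 change -0.76, SE 0.19), the oligodendrocyte-myelin glycoprotein gene Omg (-1.13, SE 0.34) and the deacetylase gene Sirt2 (-0.29, SE 0.08) fell too. Of the fits that left out 1 of the 8 libraries, 6 kept the Car2 call, 3 that of Omg and 1 that of Sirt2. With the anterior lobe covariate Car2 (-0.51, adjusted p = 0.188) and Omg (-0.34, adjusted p = 0.487) did not pass. In this list 2 genes were lower and none higher without 35-day replicate 2, where 5.95% of all genes tested were lower. Without 35-day replicate 3, where 14.8% of all genes tested were lower and 15.9% higher, 6 were lower and 1 was higher. With the anterior lobe covariate (7.39% lower and 7.3% higher over all genes tested) 2 were lower and 1 was higher.

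Opalin and Hapln2, both of mature oligodendrocytes, were below the limit for testing, at 0 to 4.87 and 5.45 to 19.6 in the 8 libraries.

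Of the transcription factors that set the oligodendrocyte lineage, most did not pass the test, as was so of all genes tested, of which 17.7% passed. Sox10, which oligodendrocytes and Schwann cells share, was at 439, 394, 320.4 and 390.02 at 35 days and at 322, 463, 328 and 359.7 at 125 days, with overlapping ages (log2 change -0.07, SE 0.15, adjusted p = 0.778). Olig1 (log2 change -0.35, SE 0.20, adjusted p = 0.268) and Olig2 (-0.43, SE 0.26, adjusted p = 0.299) did not pass. Of 17 factors tested 3 were lower and none higher, with a median of -0.31, and 8 were lower and none higher without 35-day replicate 3. Without 35-day replicate 2, 2 were lower. Of all genes tested 8.87% were lower in the main test, 14.8% without 35-day replicate 3 and 5.95% without 35-day replicate 2. Hes5, a Notch target that holds back oligodendrocyte differentiation, was at 84.0, 93.0, 112 and 124 and then 14.2, 11.7, 26.5 and 38.1. It fell by 2.27 (SE 0.35, adjusted p = 0.00185), with no overlap, and kept its call without any 1 library. The zinc finger genes Zfp488 (-1.29, SE 0.33) and Zfp24 (-0.31, SE 0.09) fell, calls kept in 5 and 2 of the 8 fits without 1 library, and Zfp24 did not pass with the anterior lobe covariate (adjusted p = 0.0729).

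Genes of progenitors and of committed, newly formed oligodendrocytes were lower in 5 of 13 and higher in none, with a median log2 change of -0.62. The count lower was 3 without 35-day replicate 2, 9 without 35-day replicate 3 and 8 when the anterior lobe covariate was included, with none higher. Of all genes tested 8.87% were lower in the main test, and 5.95%, 14.8% and 7.39% in these fits. Luzp2 was at 1285, 949, 506 and 1016 at 35 days and at 187, 198, 199 and 200.4 at 125 days. It fell by 2.18 (SE 0.24, adjusted p = 2.90e-04), with no overlap. Vcan, the matrix proteoglycan versican, which fibroblasts and other cells also make and which is on the pituicyte list too, fell by 1.32 (SE 0.28, adjusted p = 0.0106). Bcas1, of early myelinating oligodendrocytes, was at 252.8 ± 61.8 and 139 ± 31.6 depth-normalized counts (SD, n = 4; log2 change -0.86, SE 0.22), and Enpp6, of newly formed ones, at 212 ± 80.3 and 92.5 ± 18.4 (log2 change -1.12, SE 0.29). Gpr17, the receptor of the committed stage, went from 473 ± 102 to 277 ± 82.6 (-0.80 on the log2 scale, SE 0.24, adjusted p = 0.0477 by limma). The ages overlapped in 1 library for Enpp6 (105.7 in 35-day replicate 3) and for Gpr17 (349.8 in the same library). The calls of Luzp2 and Vcan were kept without any 1 library, that of Bcas1 in 6 of the 8 such fits, and those of Enpp6 and Gpr17 in 2.

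Pdgfra, the receptor gene of progenitors and of fibroblasts, was at 3149, 2992, 1696 and 3121 at 35 days and at 1681, 2873, 1750.01 and 2027 at 125 days. It did not pass (-0.39 on the log2 scale, SE 0.23, adjusted p = 0.281), with its low 35-day value in replicate 3. Without that library it was lower at 125 days (-0.60 on the log2 scale, SE 0.16, adjusted p = 0.0182). Of 15 proliferation genes 14 were lower at 125 days, beside 8.87% of all genes tested. Their summed levels were 16270.2 to 17758 and then 7627 to 8336, and their part in the progenitor results was not tested.

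Enzymes of myelin lipid were for the most part without a call: of 32 tested 2 were lower and 1 higher, with a median of -0.06. Over all genes tested 8.87% were lower and 8.85% higher. The counts were 5 lower and 3 higher without 35-day replicate 3, 1 lower and 1 higher without 35-day replicate 2, and none lower and 1 higher with the anterior lobe covariate. Fa2h, which makes the hydroxylated fatty acids that Ugt8 builds into galactosylceramide, was at 63.3, 128, 82.8 and 62.7 and then 40.6, 59.6, 50.4 and 49.9. The ages did not overlap, but the test was not passed (log2 change -0.69, SE 0.25, adjusted p = 0.0885), and replicate 2 of 35 days was the highest. Gal3st1, which turns galactosylceramide into sulfatide, had a log2 change of -0.50 (SE 0.23, adjusted p = 0.173). The lysosomal enzyme gene Arsa, which breaks sulfatide down, rose 0.47 (SE 0.09, adjusted p = 0.00566), from 2157 ± 172 to 2977 ± 140.4 (SD, n = 4; limma), and kept its call without any 1 library. The cholesterol synthesis genes Hmgcs1 (-0.43, SE 0.10) and Cyp51 (-0.40, SE 0.10) fell, calls lost with the anterior lobe covariate (adjusted p = 0.122 and 0.152). Hmgcs1 also lost its call without 125-day replicate 3. Cyp51 lost its call without 35-day replicate 2 and without 125-day replicate 2, 3 or 4, and with the replicate number as a block.

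In the list of node and axon-glia contact genes, 5 of 26 were higher and 1 was lower, with a median of 0.09. This balance turned around in other fits: 5 were higher and 8 lower without 35-day replicate 3, and the anterior lobe covariate left 3 higher and 4 lower (median -0.03). Without 35-day replicate 2, 5 were higher and none was lower. Of all genes tested 8.85% were higher and 8.87% lower in the main test. These shares were 15.9% and 14.8% without 35-day replicate 3, and 7.3% and 7.39% with the anterior lobe covariate. Cntnap2, which gathers potassium channels beside the node of Ranvier and is also found in unmyelinated neurons, was at 1537, 1392, 908 and 1525 at 35 days and at 9657, 7166, 8553 and 7714 at 125 days. It rose 2.65 (SE 0.17, adjusted p = 1.28e-05), a fitted fold of 6.26, with no overlap. Sptbn4, the spectrin of the node and axon initial segment, rose 1.61 (SE 0.19) and Lingo1, a brake on myelination, 1.03 (SE 0.21). Nrcam, which also rose (0.34, SE 0.08), was named after its values were seen. Jam3 was the gene that fell (-0.41, SE 0.13), a call kept in 2 of the 8 fits without 1 library. With the anterior lobe covariate Lingo1 (0.95, adjusted p = 0.0533), Nrcam (0.30, adjusted p = 0.0885) and Jam3 (-0.43, adjusted p = 0.126) did not pass. Neurons and pituitary endocrine cells also express these genes, and the Pomc share given above was for the most part higher at 125 days. In replicates 1 to 4 of 35 days the Pomc share was 6.44, 5.65, 10.2 and 6.78%. Replicate 3, the library with the high anterior lobe level, had the highest share and the lowest Cntnap2 value (908). Replicate 2 had the lowest share and the next lowest Cntnap2 value (1392). The part of the Pomc-expressing tissue in these results was not tested.

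**Figure D4:**
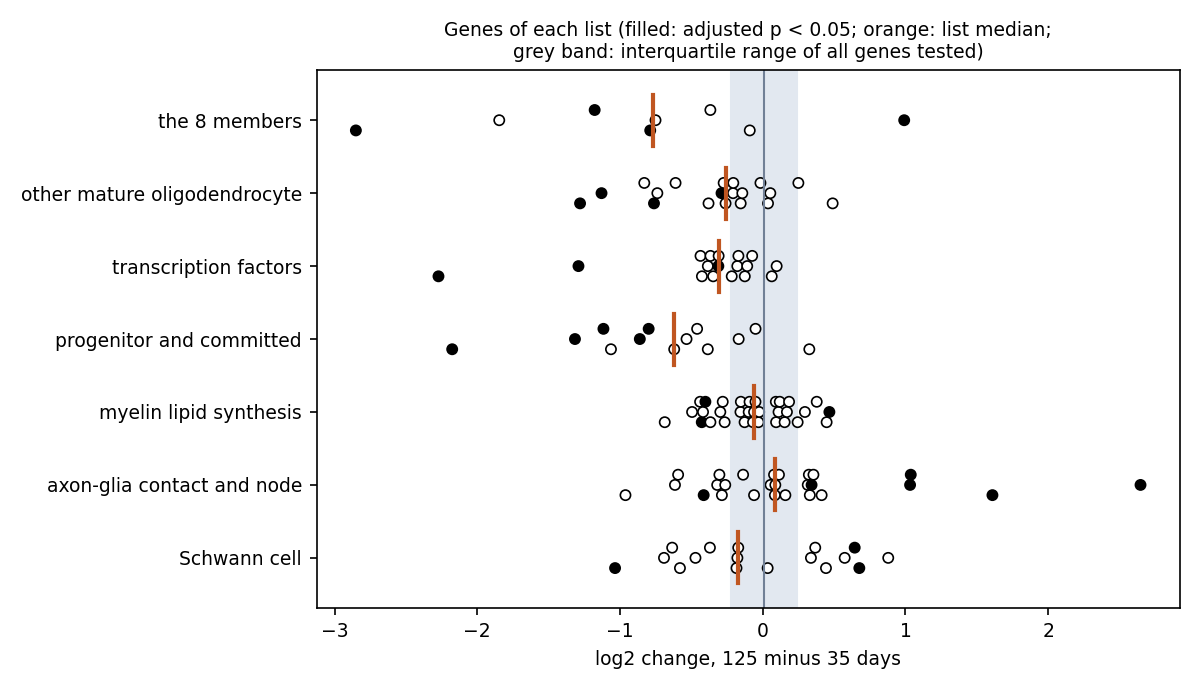
Log2 change with age (125 minus 35 days) of the tested genes of each list; points are genes, filled where the limma adjusted p was below 0.05, orange lines are list medians and the grey band is the interquartile range of all 17919 genes tested. The progenitor list has its median at -0.62 and the lipid list at -0.06, and Cntnap2 (2.65) is the farthest point on the right.

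Of the 17 Schwann cell markers tested, 2 were higher (Cdh19, 0.68, SE 0.19, and Drp2, 0.64, SE 0.19) and 1 was lower (Mia, -1.03, SE 0.20). These 3 were named after their values were seen. The Cdh19 and Drp2 calls were kept in 3 and 2 of the 8 fits without 1 library, and neither passed with the anterior lobe covariate. Mia did not pass in that fit either (-0.66, adjusted p = 0.0680), where 2 other genes of the list were lower and none was higher. Without 35-day replicate 3, 3 were higher and 4 lower. The list median was -0.17, and 0.12 without 35-day replicate 2. In the main test 8.85% of all genes were higher and 8.87% lower.

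The genes whose pattern over the 8 libraries was most like that of the myelin genes were ranked by Pearson correlation with the mean standardised log2(value + 1) of Mbp, Mag, Mog, Mobp, Ugt8 and Myrf, among 12806 genes with a mean of at least 100. Among the 6 with the highest correlation were Mest (0.98), Ppp3cc (0.95), Htr2c (0.95), Rab23 (0.95) and Slc35a5 (0.94). They were chosen for this likeness, so no test is given, and all share the same libraries. Mest, an imprinted gene that is also on the pituicyte list, was at 11215, 13008, 8327 and 9122 at 35 days and at 8488, 9491, 8703 and 8474 at 125 days. As in Mbp, replicates 1 and 2 of 35 days were high, and replicates 3 and 4 lay near the 125-day libraries. None of the 6 passed the test of age (adjusted p from 0.238 to 0.435), and with Myrf alone their correlations were -0.32 to -0.08. Levels of the 15 pituicyte markers, Mest among them, summed to 142517, 147279, 90961 and 112822 at 35 days and to 73020 to 103832 at 125 days. Of these markers 4 were lower and 1 was higher, beside 8.87% and 8.85% of all genes tested. The part of pituicytes in the likeness was not tested.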

How the data were processed

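Neural lobe RNA of 8 male rats' samples (4 per age, grouped by sample title) was analysed from 1 table of depth-normalized signal, which the authors deposited: whole-gene read counts scaled by a size factor. The values themselves show this, 100% being whole multiples of what 1 read is worth in that library, within 0.001 reads. Build rn7 is named in the submitters' processing notes, as are DESeq2 1.34.0, HISAT2 2.2.1, Subread 2.0.1 (featureCounts), Trimmomatic 0.39 and SAMtools 1.13; their roles and order are not. The sources used here do not give the annotation or strand setting, so reads of overlapping genes (Zfp57 at Mog, and uncharacterised loci at Mbp, Mag, Pmp22 and Ugt8, in GRCr8) cannot be told apart.

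The main test was limma 3.58.1 (R 4.3.3) on log2(value + 1) with a mean-variance trend, restricted to genes reaching 10 in 4 or more libraries, two-sided, with age as the only term and calls at an adjusted p below 0.05. It was also run on counts simulated with known changes. No simulated library was made to deviate as 35-day replicate 3 did, so that run does not bear on such a library. Alternatives were no filter, a mean of 50 or more, pseudocounts of 0.5 and 5, TMM and upper quartile scaling, no trend, DESeq2 1.42.0 and edgeR 4.0.16 on recovered reads, library weights, the replicate number as a block, an anterior lobe covariate (mean log2 level of that list), and leaving out each library. A fit without 35-day replicates 2 and 3 was added after seeing the data. Counting error alone limits genes of few reads such as Mag.

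The genes, 5 pathway lists and 9 lists of other cells or processes were chosen with earlier results of these data known. Named genes are the 8 genes, up to 4 calls of lowest adjusted p in each direction per pathway list, 9 fixed lineage and lipid genes, and the 6 most alike genes. Promoter windows were matched by symbol for 6 of the 8 genes. Figures were drawn with matplotlib 3.10.9. Some genes that this rule names are not reported here.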

Additional observations from a re-analysis of the deposited data

Results flagged for a closer look

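In groups of 4 libraries, a value was singled out where its gap to the nearest other library exceeded the share of the group's range set by Dixon's critical value. This held in 9 of 66 groups of named genes, and chance gives about 1 in 20 groups. At 35 days, replicate 2 was high for Mag (46.5, others 10.2 to 16.3). Replicate 3 of 35 days was high for Car2 (1257, others 694 to 749) and low for Pdgfra (1696, others 2992 to 3149).

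At 125 days, replicate 2 was high for Mag (4.89, others 0.978 to 1.26), Pmp22 (3494, others 2467 to 2634) and Myrf (703, others 441 to 480.4), and low for Sptbn4 (1232, others 1582 to 1628). Replicate 4 of 125 days was low for Bcas1 (91.9, others 151 to 157), and replicate 1 was low for Luzp2 (187, others 198 to 200.4).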

How the results depend on the processing

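Of the 8 genes, 4 passed in the reported fit. The count was 2 with the anterior lobe covariate, where Ugt8 and Myrf were lost, and 3 to 5 without 1 library. Over the 8 genes and all alternatives, 157 of 166 results kept their direction and their side of the threshold, 4 lost the call, 5 gained it and none changed sign. For the other pathway genes the count of 21 was 60 with library weights and 11 to 45 without 1 library: 45 without 35-day replicate 3, and 13, 13 and 11 without 125-day replicates 1, 3 and 4. Over all genes, 3174 became 7892 with library weights and 1894 to 5495 without 1 library (5495 without 35-day replicate 3). The library weights were 3.76 for 35-day replicate 2 and 0.100 for replicate 3. The causes were not tested. Same-numbered libraries did not deviate together (correlations of 0.04, 0.17, -0.00 and -0.12), so the numbers were not taken as pairs. With the replicate number as a block 2718 genes, the same count of 4 of the 8 and 14 pathway genes passed. Without 35-day replicates 2 and 3 the counts were 3482, 4 and 27. Depth limits Mag and Mog, with 98 reads each over the 8 libraries.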
